A study of Mus musculus with 18 samples.

Results

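The genes described here are 40 interferon-stimulated genes of the mouse, taken as the rows of both deposited expression tables whose gene name was on a list of well-known members of this response. All 40 were found, each once, among 52636 genes. They were followed in 18 RNA-seq libraries from mice in which Olfr78, an odorant receptor gene expressed in colon enteroendocrine cells, was intact, reduced or lost. The comparisons ask how loss of Olfr78 bears on these cells and on the crypt epithelium.

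Sorted cells came from colons of mice aged 4 to 7 months. Epcam+ve/GFP-ve cells were 2 samples of 1 wildtype mouse (Epcam WT). Epcam+ve/GFP+ve cells came from the Olfr78-GFP strain (B6;129P2-Or51e2tm1Mom/MomJ), in which a GFP cassette stands in place of the coding exon, as 2 heterozygous pools (HE) and 2 homozygous pools (KO) of 2 mice each. Whole colon crypts of this strain came from 2 wildtype mice (WT) and 5 homozygous mice (KO). Crypts of the Vil1Cre-Olfr78fx line, in which Cre is driven by the Villin promoter of epithelial cells and the floxed coding exon can be removed there, came from 3 control mice (eControl) and 2 knockout mice (eKO). The controls were of 2 kinds, as eControl 1 and 3 carried the tag HE/WT and eControl 2 the tag WT/HO. In its qRT-PCR of this line the study used floxed mice without Cre and Cre mice with wildtype Olfr78 as controls. If a tag gives Cre first and Olfr78 second, WT/HO is the former and HE/WT the latter. This order was not stated in the sources used here. The library labelled eKO 2 also carried WT/HO, the tag of a control, while eKO 1 carried HE/HO, so results with eKO are given with and without it. Ages of the mice used for crypts and the sex of any mouse were not given in the sources used here. Apart from the 2 Epcam WT samples, each library was a separate mouse or pool.

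Type I and type III interferons bind receptors at the cell surface and activate the kinases Jak1 and Tyk2, which phosphorylate Stat2. A complex that holds Stat2 and Irf9 then binds the interferon-stimulated response element in promoters, whereas type II interferon acts through the gamma-activated site. The proteins made in return sense viral RNA, degrade or sequester it, tag proteins with Isg15, trim peptides for antigen presentation and feed back on the pathway. Epithelial cells of the gut keep a low constant level of this programme, and part of it is known to depend on the microbiota.

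Promoter sequence was read to show which members carry the response element next to their start. A RefSeq promoter window (GRCm38.p6, 250 bases before to 50 after the start) was matched for 31 of 40 members. The response element core, GAAA, any 2 bases, GAAA, searched on both strands, was in the windows of 15 of these 31 genes (48.4%), against 3.99% of all 27025 genes with a window. The gamma-activated core, TTC, any 3 bases, GAA, which reads the same on both strands, was in 5 of 31 (16.1%), against 9.55% of all genes. Isg15 held 3 overlapping matches of the response element, beginning 78, 72 and 66 bases before the start, and Rsad2 held 1, beginning 120 bases before it. The windows of Irf7, Irf9, Trim25, Oasl1, Oasl2 and Slfn4 held none of these letters. No window was matched for Mx1 and Oas2, which are named only. The stretches shown here end at the RefSeq start or, for Gbp2, short of it, and are read 5′ to 3′ on the strand of the gene, with the response element core in capitals. They are the members that passed a test in any comparison and held the core (Oas3, Ifit1, Gbp7 and Gbp2), followed by the members with a window most abundant per kilobase of exon in crypts (Trim25 and Slfn4).
Oas3, chr5:120777660-120777809, minus strand: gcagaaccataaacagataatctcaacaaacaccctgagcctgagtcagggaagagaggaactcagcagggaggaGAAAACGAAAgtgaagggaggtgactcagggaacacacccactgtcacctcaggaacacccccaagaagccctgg
Ifit1, chr19:34640739-34640888, plus strand: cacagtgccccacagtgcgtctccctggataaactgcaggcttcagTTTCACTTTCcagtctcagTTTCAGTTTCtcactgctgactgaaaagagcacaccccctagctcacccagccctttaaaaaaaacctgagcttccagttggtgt
Gbp7, chr3:142530186-142530335, plus strand: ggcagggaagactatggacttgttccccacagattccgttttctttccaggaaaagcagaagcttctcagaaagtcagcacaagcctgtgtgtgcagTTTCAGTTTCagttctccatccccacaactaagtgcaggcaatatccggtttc
Gbp2, chr3:142620513-142620631, plus strand: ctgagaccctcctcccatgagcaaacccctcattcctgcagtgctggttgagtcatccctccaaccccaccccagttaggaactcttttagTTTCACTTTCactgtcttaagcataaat
Trim25, chr11:88999253-88999402, plus strand: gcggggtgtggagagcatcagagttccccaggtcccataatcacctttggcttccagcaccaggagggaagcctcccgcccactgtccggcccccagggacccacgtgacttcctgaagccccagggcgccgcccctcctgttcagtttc
Slfn4, chr11:83175036-83175185, plus strand: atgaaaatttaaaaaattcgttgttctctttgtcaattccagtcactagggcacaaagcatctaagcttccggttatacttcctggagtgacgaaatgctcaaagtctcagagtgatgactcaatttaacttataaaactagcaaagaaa
Ifit1 carried 2 copies of the core, beginning 104 and 85 bases before its start, and the single copies of Oas3, Gbp2 and Gbp7 began 75, 59 and 53 bases before theirs. A match describes letters in the window and is not evidence of binding.

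Values are given in CP20M, the reads on a gene scaled to a total of 20000000 per library and rounded up, so that 40 CP20M equals 2 CPM. Sorted libraries held 532704 to 2237485 reads on genes and crypt libraries 6175301 to 10995286. One read was worth 8.94 to 13.3 CP20M in 5 of the sorted libraries and 37.5 in KO pool 1, against 1.82 to 3.24 in crypts. Hence 16 members were at 0 in KO pool 1 and 4 to 11 in the other sorted libraries, where a count of 0 allows up to 26.8 to 112.6 CP20M (3 reads, counting error only), and none was at 0 in any crypt library. Olfr78 itself was at 135 and 21 in Epcam WT cells, 4822 and 4401 in HE and 977 and 837 in KO. In crypts it was at 88 and 111 in WT, 42, 23, 27, 28 and 7 in KO, 105, 61 and 124 in eControl and 21 in eKO 1, whereas the library labelled eKO 2 had 73, inside the eControl range. The 5 enteroendocrine markers summed to 845022 to 1100802 in HE, 352829 to 594441 in KO pools and 12514 to 12899 in Epcam WT. The Epcam WT samples bear the same enteroendocrine label as the GFP+ve pools. Their titles, however, name Epcam+ve/GFP-ve cells, and the study used them to stand for all epithelial cells. All 5 epithelial markers were present in every library. In bulk RNA, fewer cells of a type and less RNA per cell cannot be told apart.

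The summed level of the 40 members was 15049 to 27920 CP20M in crypts and 6018 to 10390 in sorted cells. Per kilobase of exon (GENCODE release 21 gene models, GRCm38), Trim25 was the most abundant member in each of the 7 groups, at 588.3 ± 17.0 CP20M per kb in WT crypts (SD, n = 2) and 333.2 ± 12.4 in HE (SD, n = 2), where the median member stood at 36.8 and 24.9. Irf7, Dtx3l and Ifih1 followed in WT crypts, at 411.9 ± 62.0, 296.2 ± 45.2 and 227.9 ± 7.97 CP20M per kb (SD, n = 2). Slfn4 took the second place in KO, eControl and eKO crypts, but its spread there (435.7 ± 66.5, n = 5, 444.2 ± 298.8, n = 3, and 499.7 ± 412.1, n = 2) overlapped that of Irf7, which came next (350.1 ± 55.2, 367.2 ± 77.9 and 488.5 ± 122.3). The exon length used merges the exons of all annotated transcripts of a gene. For Irf7 it was 3776 bases, the whole gene from start to end, so its level per kb may be underestimated. The order of Trim25, Irf7 and Slfn4 thus depends on the gene model. At the low end stood Ifi44 and Slfn5 in WT crypts, at 2.86 ± 0.346 and 3.40 ± 0.112 CP20M per kb (SD, n = 2). Isg15 and Ifit3, classic strongly induced members, stood at 8 to 57 and 20 to 116 CP20M in crypts. With 2 libraries a group, values that do not overlap were common, since over all genes tested 63.5% did not overlap between HE and Epcam WT, 54.9% between KO pools and Epcam WT, 35% between KO and HE pools and 65.2% between Epcam WT and WT crypts.

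**Figure D1:**
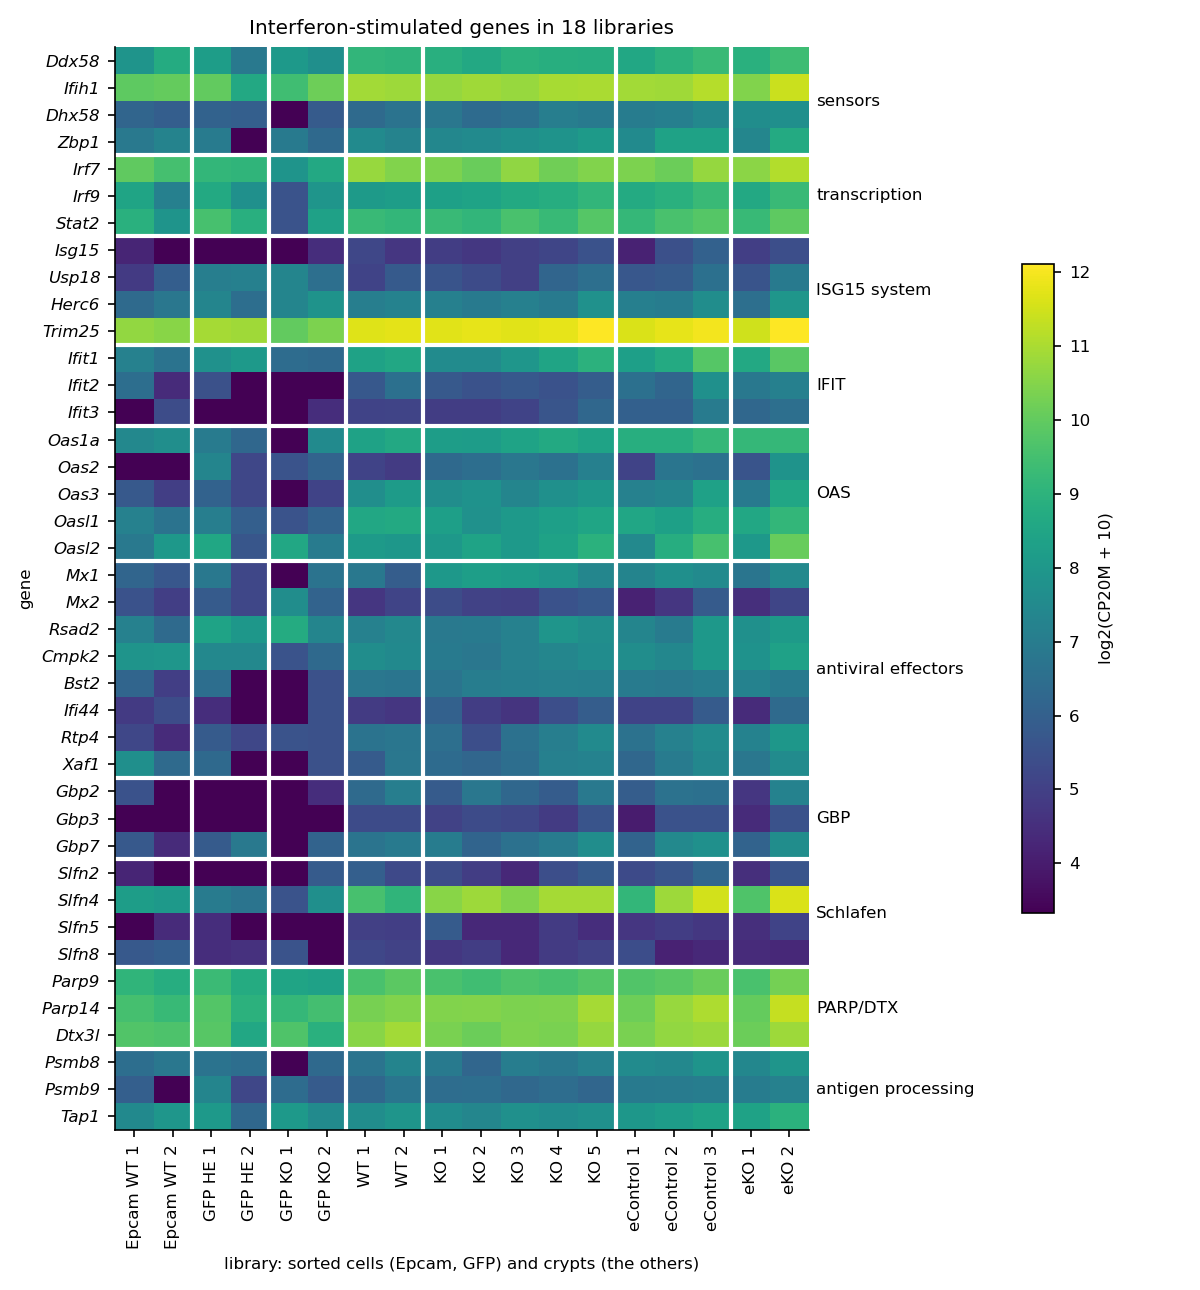
Level of the 40 members (rows, grouped by role) in the 18 libraries (columns), on the scale log2(CP20M + 10), with brighter cells higher. Trim25 is brightest in every library, sorted libraries are darker than crypt libraries for most members, and eControl 3 and eKO 2 are brighter than eControl 1 and eKO 1.

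Within each role, most and least abundant refer to the mean per kilobase of exon over the 12 crypt libraries. The order could differ in sorted cells and in single crypt groups. Among the sensors, Ifih1 (MDA5) and Ddx58 (RIG-I) detect viral RNA in the cytosol, Dhx58 (LGP2) modulates both, and Zbp1 detects Z-form nucleic acid. Ifih1, the most abundant, stood at 1907 and 1815 in WT crypts, 1702, 1876, 1714, 2014 and 2028 in KO, 1895, 1865 and 2262 in eControl and 1388 and 2738 in eKO. All sorted libraries lay below these, with 975 and 1038 in Epcam WT, 1025 and 387 in HE and 676 and 1139 in KO pools. Dhx58 was the least abundant sensor, at 72 and 93 in WT, 103, 75, 86, 125 and 111 in KO, 120, 128 and 164 in eControl and 187 and 199 in eKO. Both eKO libraries thus lay above the 3 eControl libraries for Dhx58, without passing a test, and 7.58% of all genes tested did the same. In sorted cells Dhx58 was at 63 and 52, 58 and 54, and 0 and 47 for Epcam WT, HE and KO.

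Of the transcription factors, Irf7 amplifies interferon production and Irf9 and Stat2 are parts of the complex described above. Irf7 stood at 1721 and 1390 in WT crypts, 1340, 1082, 1623, 1177 and 1388 in KO, 1327, 1127 and 1706 in eControl and 1518 and 2171 in eKO. Its sorted levels were 984 and 730 in Epcam WT, 553 and 534 in HE and 226 and 384 in KO pools. Irf9, the least abundant, was at 269 and 290 in WT and 310, 331, 401, 435 and 541 in KO, so that every KO mouse lay above both WT mice. It was at 407, 474 and 618 in eControl, 389 and 621 in eKO, and 340, 134, 392, 201, 38 and 233 across Epcam WT, HE and KO sorted cells.

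Isg15 is a ubiquitin-like tag, Herc6 its ligase in the mouse, Usp18 the enzyme that removes it and a brake on the receptor, and Trim25 a ubiquitin ligase that activates Ddx58. Trim25 stood at 3316 and 3454 in WT crypts, 3367, 3527, 3401, 3522 and 4441 in KO, 3129, 3539 and 3982 in eControl and 2883 and 4431 in eKO. In sorted cells it had 1663 and 1500 in Epcam WT, 1968 and 1867 in HE and 1014 and 1325 in KO pools. Herc6, the least abundant per length, was at 126 and 139 in WT, 133, 111, 133, 113 and 211 in KO, 128, 120 and 190 in eControl and 82 and 239 in eKO crypts. Its sorted values were 72 and 103, 150 and 81, and 151 and 221, and 13.7% of its exon length is shared with another annotated gene on the same strand, as is 13.9% of that of Rtp4 and 11.35% of that of Gbp7, so reads of these 3 may be split.

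The Ifit proteins bind foreign RNA ends. Ifit1, the most abundant of them, stood at 328 and 376 in WT crypts, 180, 179, 238, 346 and 498 in KO, 300, 407 and 871 in eControl and 384 and 926 in eKO. Sorted cells had 135 and 93 in Epcam WT, 208 and 254 in HE and 76 and 70 in KO pools. HE thus lay above the other sorted groups for Ifit1. Ifit2, the least abundant, was at 43 and 84 in WT, 36 to 50 in KO, 63 to 202 in eControl and 105 and 133 in eKO, and above 35 in 1 sorted library only (Epcam WT sample 1, 81).

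The 2′-5′ oligoadenylate synthetases Oas1a, Oas2 and Oas3 make the second messenger that activates RNase L, and Oasl1 and Oasl2 are related proteins. Oas1a, the most abundant per length, stood at 323 and 385 in WT crypts, 288, 279, 337, 396 and 333 in KO, 449, 445 and 575 in eControl and 573 and 566 in eKO, and at 161 and 196, 116 and 67, and 0 and 175 in sorted Epcam WT, HE and KO cells. Oas2, the least abundant per length in crypts, was listed at 0 in both Epcam WT samples, with 150 and 27 in HE and 38 and 59 in KO pools. Its crypt values are given with the comparison of KO and WT. Oas3 was at 192 and 274 in WT, 191, 214, 150, 201 and 243 in KO, 136, 149 and 315 in eControl and 110 and 355 in eKO crypts, and at 45 and 21, 58 and 27, and 0 and 24 in sorted cells. Oasl1 was at 379 and 397 in WT, 299, 208, 259, 302 and 354 in KO, 357, 308 and 436 in eControl and 374 and 561 in eKO crypts, and at 135 and 93, 127 and 54, and 38 and 59 in sorted cells. Both were lower in every sorted library than in any WT crypt library, and Oasl2 ranged from 41 to 1079 over all 18 libraries.

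Among the antiviral effectors, Mx1 and Mx2 belong to a family of GTPases that can block viral replication, Rsad2 (viperin) and Cmpk2 produce and handle altered nucleotides, and Bst2 (tetherin) holds virions at the membrane. Whether these mouse strains make working Mx1 and Mx2 proteins cannot be read from RNA levels. Bst2, the most abundant of the 8 per length in crypts, stood at 102 and 96 in WT crypts, 94, 124, 129, 136 and 132 in KO, 115, 108 and 124 in eControl and 141 and 111 in eKO. Sorted cells had 63 and 21, 81 and 0, and 0 and 35. There other effectors stood higher per length, as Rsad2 did in HE (66.3 against 44.9 CP20M per kb). Ifi44, the least abundant, was at 19 and 16 in WT, 56, 20, 15, 33 and 50 in KO, 24, 24 and 48 in eControl and 11 and 73 in eKO crypts. It was at 0 to 35 in sorted cells. The others ranged over all libraries from 8 to 188 for Mx2, 72 to 413 for Rsad2, 38 to 315 for Cmpk2 and 0 to 197 for Xaf1. Rtp4, a chaperone of membrane receptors, was at 91 and 100 in WT, 83, 33, 88, 127 and 173 in KO, 89, 137 and 178 in eControl and 141 and 241 in eKO crypts, and at 27 and 11, 47 and 27, and 38 and 35 in sorted cells. Mx1 in sorted cells was at 63 and 42, 104 and 27, and 0 and 93. Rsad2 was the one effector whose HE and KO pools (334, 241, 413 and 152) all lay above the Epcam WT samples (135 and 72).

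The guanylate-binding proteins Gbp2, Gbp3 and Gbp7 are GTPases that attack intracellular pathogens. Gbp2 stood at 72 and 125 in WT crypts, 47, 101, 67, 49 and 109 in KO, 50, 90 and 86 in eControl and 16 and 139 in eKO, and at 36 and 0, 0 and 0, and 0 and 12 in sorted cells. Gbp7 was at 94 and 114 in WT, 119, 62, 88, 116 and 191 in KO, 60, 165 and 202 in eControl and 59 and 188 in eKO crypts, and at 45 and 11, 47 and 107, and 0 and 59 in sorted cells. Gbp3, the least abundant, was at 30 and 30 in WT, 23, 30, 27, 19 and 39 in KO, 6, 36 and 36 in eControl and 11 and 37 in eKO crypts, and at 0 in all 6 sorted libraries. The Schlafen genes Slfn2, Slfn4, Slfn5 and Slfn8 are a clustered family of interferon-induced regulators on chromosome 11 whose members resemble each other, so reads could be split between them. Slfn4 was the most abundant per length, with 287 and 257, 116 and 94, and 38 and 198 in sorted cells and the crypt values given with the comparisons, and Slfn5, the least abundant, was at 22 and 21 in WT, 47, 10, 10, 19 and 12 in KO, 16, 20 and 17 in eControl, 13 and 24 in eKO and 0 to 12 in sorted cells.

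Parp9 and Dtx3l form an ADP-ribosylation and ubiquitin ligase pair, and Parp14 modifies proteins alongside them. Dtx3l stood at 1513 and 1879 in WT crypts, 1296, 1115, 1367, 1287 and 1687 in KO, 1282, 1655 and 1751 in eControl and 1130 and 1792 in eKO, and at 841 and 792, 898 and 374, and 826 and 465 in sorted cells. Parp14, the least abundant per length, was at 1263 and 1390 in WT, 1398, 1422, 1322, 1372 and 1967 in KO, 1152, 1724 and 2113 in eControl and 1051 and 2603 in eKO crypts. Its sorted values were 725 and 596, 852 and 494, and 564 and 709. Parp9 and Dtx3l share 458 bases of exon on opposite strands. Psmb8 and Psmb9 are immunoproteasome subunits and Tap1 carries peptides into the endoplasmic reticulum. Tap1 stood at 190 and 231 in WT, 183, 156, 205, 182 and 202 in KO, 245, 282 and 329 in eControl and 325 and 486 in eKO crypts, and at 170 and 237, 254 and 67, and 263 and 175 in sorted cells. Psmb9, the least abundant, was at 64 to 96 in the Olfr78-GFP crypts, 110 to 135 in the Vil1Cre-Olfr78fx crypts and 0 to 150 in sorted cells, and shares 212 bases of exon with Tap1 on the opposite strand.

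In crypts of the Olfr78-GFP strain, Slfn4, Oas2 and Mx1 were higher in KO than in WT mice, and no other member passed the test. Slfn4 was at 738 and 535 in WT and 1492, 1830, 1400, 1959 and 1954 in KO. Every KO mouse was thus at least 1400, above both WT mice. The log2 fold change was 1.43 (SE 0.16, limma-trend, adjusted p = 0.000982) and the ratio of means 2.71. Oas2 was at 24 and 19 in WT and 70, 81, 103, 88 and 132 in KO, again without overlap. It differed by 1.71 (SE 0.26, limma-trend, adjusted p = 0.00541), with a ratio of means of 4.41. Mx1 was at 104 and 50 in WT and 246, 295, 273, 231 and 154 in KO. The lowest KO mouse, KO 5, stood well above the higher WT mouse. Mx1 differed by 1.56 (SE 0.27, limma-trend, adjusted p = 0.00918), with a ratio of means of 3.11. These fold changes are on the scale of log2(CP20M + 10), over genes with at least 40 CP20M in 2 of the libraries compared, and a gene was called when its adjusted p did not exceed 0.2 and its fold passed 1.5. Oas2 was under 40 CP20M in both WT mice, at 9 and 8 reads, so it entered the test through the KO mice. Its call and ratio of means thus follow in part from the filter and the low WT counts. It was also called without a filter. Leaving out any 1 of the 5 KO mice left all 3 genes called. Leaving out a WT mouse leaves 1 WT library, so only the size of the effect is given for that. Over all 7 omissions the log2 fold change of Oas2 lay between 1.59 and 1.82 and that of Mx1 between 1.10 (without WT 2) and 2.03 (without WT 1). The p values above rest on 2 WT mice.

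Of the 35 members tested, 3 were called higher (8.57%) and 0 lower, while 7.95% of all 15975 genes tested were called higher and 9.48% were called in either direction. The share of members called higher was thus near the background. Their median log2 fold change was 0.005, beside 0.026 for all genes tested, and 6 members had an unadjusted p under 0.05. Every KO mouse lay above both WT mice for 4 members (Irf9, Mx1, Oas2 and Slfn4), beside 18.2% of all genes tested, and below both for Ddx58 and Oasl1, beside 13.1%. Irf9 differed by 0.49 (SE 0.19, limma-trend, adjusted p = 0.127) and Oasl1 by -0.46 (SE 0.18, limma-trend, adjusted p = 0.131), short of the fold needed. Markers of other cells and of handling moved in the same comparison. Of 8 leukocyte markers tested, 4 (Ptprc, Laptm5, Coro1a and Lyz2) were called lower in KO, the summed level of the 12 on the list was 848 to 999 in WT and 479 to 797 in KO with at most 1 of them at 0, and Ptprc itself was at 374 to 413 and 162 to 340. Of 6 stress genes tested, 4 (Fos, Egr1, Hspa1a and Hspa1b) were lower in KO, with a summed level of 13941 to 19375 in WT and 5914 to 8524 in KO. Their part in the result was not tested.

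**Figure D2:**
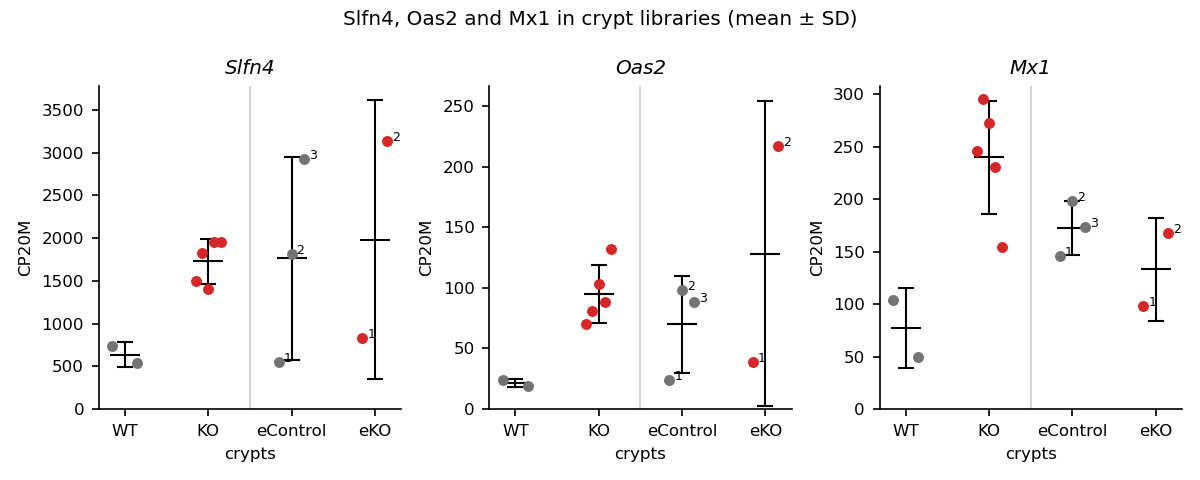
CP20M of Slfn4, Oas2 and Mx1 (one panel each) in the crypt libraries of both lines, 1 point per mouse, numbered in the Vil1Cre-Olfr78fx line, with mean ± SD (n = 2 WT, 5 KO, 3 eControl and 2 eKO). In the Olfr78-GFP strain all KO points lie above both WT points, while eControl and eKO points overlap for each gene.

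In the Vil1Cre-Olfr78fx line the same 3 genes showed no such separation. Slfn4 was at 553, 1810 and 2920 in eControl and 826 and 3136 in eKO. Oas2 was at 24, 98 and 88 in eControl and 39 and 217 in eKO. Mx1 was at 146, 198 and 173 in eControl and 98 and 168 in eKO. In each case the groups overlapped, and for Slfn4 2 of the 3 controls (1810 and 2920) lay within or above the KO values of the other strain, while eControl 1 (553) lay within its WT values. The log2 fold changes were 0.17 (SE 0.75) for Slfn4, 0.57 (SE 0.73) for Oas2 and -0.39 (SE 0.28) for Mx1, with limma-trend adjusted p = 1 for each. None of the 35 members tested was called (0% of 15401 genes tested were), 0 had an unadjusted p under 0.05, and edgeR and DESeq2 also called 0 members. Without the library labelled eKO 2, the log2 fold changes were -0.79 for Slfn4, -0.54 for Oas2 and -0.75 for Mx1, and the median of the members was -0.30 instead of 0.11. Without eKO 1 it was 0.61. The sign of the median thus rested on which eKO mouse was kept, and without eControl 1 it was -0.06.

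The difference between the effects of both lines, eKO minus eControl less KO minus WT, was -1.95 for Mx1 (SE 0.43, limma-trend, adjusted p = 0.557), -1.26 for Slfn4 (SE 0.77, adjusted p = 0.604 by limma) and -1.14 for Oas2 (SE 0.76, adjusted p = 0.628 by limma). None of 36 members tested was called by limma (0.0304% of 16447 genes tested were), 5 had an unadjusted p under 0.05, edgeR called 0 and DESeq2 called Mx1 (adjusted p = 0.0357). Without the library labelled eKO 2, 9 of 36 members were called lower in this contrast, beside 15.1% of all genes (Gbp2, Ifi44, Ifih1, Irf9, Mx1, Oas2, Parp14, Slfn4 and Zbp1), and without eControl 1, Mx1 and Slfn4 were, beside 2.71% of all genes. A difference in response between the lines was thus not shown by limma for Slfn4, Oas2 or Mx1, and the call depended on which mice were kept.

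Taking both lines in 1 fit with the line as a term, 0 of 36 members were called by limma-trend (0.0243% of 16447 genes tested were), 2 had an unadjusted p under 0.05, and edgeR and DESeq2 called 0. The log2 fold changes were 1.19 for Oas2 (SE 0.40, adjusted p = 0.615 by limma), 0.85 for Slfn4 (SE 0.41, adjusted p = 0.638 by limma) and 0.67 for Mx1 (SE 0.33, adjusted p = 0.638 by limma). Without eKO 1, Ifi44, Mx1, Oas2 and Slfn4 were called higher, 4 of 36 members beside 6.15% of all genes. Without the library labelled eKO 2, none was.

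**Figure D3:**
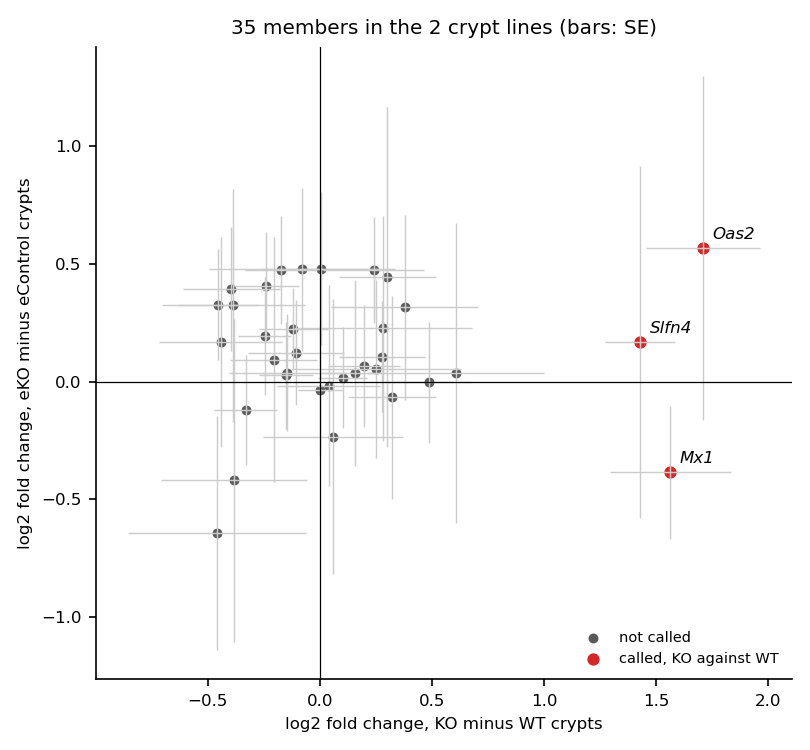
Log2 fold change of each of the 35 members tested in both lines, KO minus WT on the horizontal axis and eKO minus eControl on the vertical axis, with bars of 1 SE and the genes called in KO against WT in red. Slfn4, Oas2 and Mx1 stand apart to the right at 1.43 to 1.71, and on the vertical axis lie between -0.39 and 0.57, with bars that cover most of the other members.

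Differences between mice of the Vil1Cre-Olfr78fx line took in nearly the whole programme. In this line 28 of the 35 members with at least 40 CP20M in 2 libraries had their highest value in the library labelled eKO 2, where 26.5% of all such genes did. In eControl 3, 35 of 35 members were above their own mean over the 5 mice, and in eKO 2, 34 were, while eControl 1 had 0 above and eKO 1 had 6. The median deviation on the log2 scale was 0.48 in eKO 2 and 0.27 in eControl 3, against -0.30 in eControl 1, -0.09 in eControl 2 and -0.32 in eKO 1, and the medians over all genes lay between -0.05 and 0.05. The high pair and the low pair thus each held 1 control and 1 knockout by label. Oasl2 was the widest of the abundant members, at 165, 437 and 746 in eControl and 248 and 1079 in eKO. Of the markers of other cells, the 7 leukocyte markers tested in this line had median deviations of 0.28, 0.09 and -0.13 in eControl 1 to 3 and -0.32 and -0.04 in eKO 1 and eKO 2, and the sum of all 12 on the list was 1019, 1013, 701, 629 and 706 in the same order, with at most 1 of them at 0. The 6 stromal and endothelial markers, none at 0, summed to 527, 1704 and 909 in eControl and 745 and 1823 in eKO, with Col3a1 at 73, 707, 244, 241 and 790. This sum was thus lowest in the pair of libraries where the members stood low, and high in eKO 2 and in eControl 2, where the members did not stand high. The part of these markers in the result was not tested.

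In the Olfr78-GFP crypts the medians ranged from -0.26 to 0.35. KO 5 was above the mean for 32 of 35 members (56.4% of all genes) and highest for 15 (21.8% of all genes), and its median deviation was 0.35, while KO 2 was lowest for 15 members and had -0.26. The WT mice lay between, at -0.10 and 0.09. Among sorted cells, HE pool 1 was above the mean for 28 of 31 members and HE pool 2 for 13, with medians of 0.52 and -0.36. KO pool 1, the shallowest library, had a median of -0.58 and was lowest for 13 of 31 members (33.9% of all genes).

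**Figure D4:**
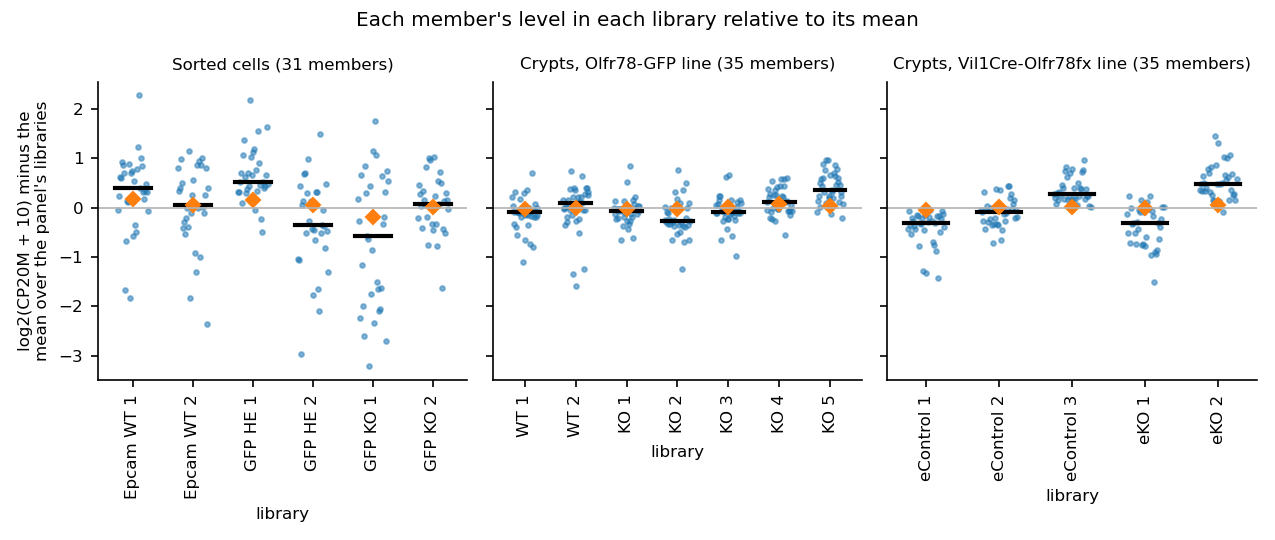
Each point is a member's log2(CP20M + 10) in a library minus its mean over the libraries of the same panel, the black line is the median of the members and the orange diamond the median of all genes with at least 40 CP20M in 2 libraries. In the Vil1Cre-Olfr78fx line the members stand high together in eControl 3 (0.27) and eKO 2 (0.48) and low in eControl 1 (-0.30) and eKO 1 (-0.32), while the diamonds stay near 0.

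Several members were lower in sorted wildtype Epcam cells than in whole WT crypts, as were the epithelial markers. Of 32 members tested, 10 were lower with an adjusted p under 0.05 and a log2 fold change below -1, and 0 were higher, where 5.27% of all 15434 genes tested were called lower. At adjusted p alone, 14 were lower, beside 18.5% of all genes. Trim25 fell from 3316 and 3454 in crypts to 1663 and 1500 in sorted cells, a log2 fold change of -1.10 (SE 0.12, limma-trend, adjusted p = 0.00105). Oas3 fell from 192 and 274 to 45 and 21, the lowest ratio of means among the 10 at 0.142, with a log2 fold change of -2.54 (SE 0.41, limma-trend, adjusted p = 0.00469). Neither gene overlapped between the groups, and 48% of all genes tested were likewise lower without overlap. Oasl1 was at 379 and 397 against 135 and 93 (-1.70, SE 0.28, limma-trend, adjusted p = 0.00459). Ifit1 was at 328 and 376 against 135 and 93 (-1.56, SE 0.28, limma-trend, adjusted p = 0.00736). The others were Slfn4 (738 and 535 against 287 and 257), Dtx3l, Parp14, Rtp4 (91 and 100 against 27 and 11), Gbp7 (94 and 114 against 45 and 11) and Gbp2 (72 and 125 against 36 and 0). The log2 fold change of Gbp2, -2.29, included a sorted sample at 0 and became -3.40 or -1.19 when 1 sorted sample was left out.

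The direction was shared but the size depended on the scaling. The median log2 fold change of the members was -0.82, beside -0.26 for all genes tested, and after rescaling by median of ratios these became -0.57 and -0.02. After rescaling 4 members stayed called (Ifit1, Oas3, Oasl1 and Rtp4), and the split over all genes went from 716 higher and 814 lower to 847 and 340. edgeR on recovered reads called the same 4 and DESeq2 the first 3 of them. The 2 members higher in both sorted samples, neither called, were Cmpk2 (224 and 237 against 190 and 172) and Slfn8 (45 and 52 against 27 and 23). All 5 epithelial markers were lower in the sorted cells at an adjusted p under 0.05 (limma-trend), with a median log2 fold change of -0.61 and sums of 60664 to 66165 against 88139 to 92175. Of the leukocyte markers 4 of 7 tested were called lower, with a sum over 12 of 188 to 261 against 848 to 999 and 5 to 6 of them at 0. Of 4 stromal and endothelial markers tested, Col3a1 was called lower (45 and 31 against 653 and 234), while 2 had a log2 fold change above 0. The heat-shock genes Hspa1a and Hspa1b were also called lower, while Fos, Jun, Egr1 and Atf3 were higher. Their part in the result was not tested. Both Epcam samples were of 1 mouse, and sorting, RNA kit and depth changed together with the tissue, so these cannot be told apart.

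**Figure D5:**
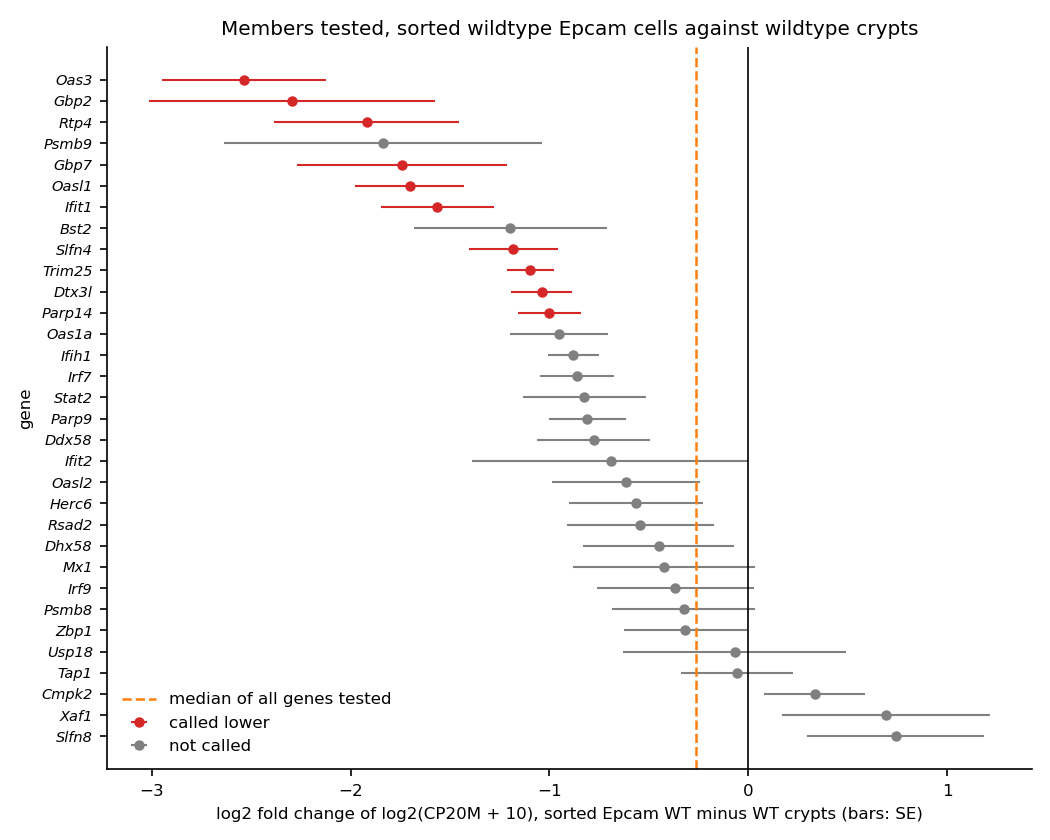
Log2 fold change of log2(CP20M + 10), Epcam WT minus WT crypts, for the 32 members tested, with bars of 1 SE, members called lower in red and the median of all genes tested as a dashed line at -0.26. Most members lie left of the dashed line, with Oas3 lowest at -2.54, and Cmpk2, Xaf1 and Slfn8 lie right of 0.

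In GFP+ve cells against Epcam WT cells, no member passed the test. Of 29 members tested for HE, 0 were called at an adjusted p under 0.001 and a log2 fold change beyond 2 (1.75% of 16355 genes tested were), and 0 at an adjusted p under 0.05 alone (23.8% were). By limma-trend 4 had an unadjusted p under 0.05, edgeR gave 1 at an adjusted p under 0.05 (Rsad2) and DESeq2 gave 0. The smallest p values were those of Slfn4, Rsad2 and Usp18. Slfn4 was at 287 and 257 in Epcam WT and 116 and 94 in HE, a log2 fold change of -1.30 (SE 0.45, limma-trend, adjusted p = 0.069). Rsad2, at 135 and 72 against 334 and 241, differed by 1.43 (SE 0.50, limma-trend, adjusted p = 0.0711). Usp18, at 18 and 52 against 127 and 134, differed by 1.75 (SE 0.64, limma-trend, adjusted p = 0.0816). For these 3 the groups did not overlap, as for 11 of 29 members and 63.5% of all genes tested. The median over the members was -0.07, beside -0.05 for all genes tested. Without HE pool 1, 8 of 26 members were lower at an adjusted p under 0.05, beside 21.3% of all genes, and without HE pool 2, 2 of 29 were higher, beside 10.3%. Heat-shock genes Hspa1a and Hspa1b were called higher in HE, with summed stress genes of 90439 to 94335 against 30503 to 33944. Of 4 stromal and endothelial markers tested, Vim was called higher, while the log2 fold change was above 0 for 2 and below 0 for 2. Col1a1 was at 188 and 155 in Epcam WT and 12 and 0 in HE. The part of these genes in the levels was not tested.

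For KO pools against Epcam WT, 0 of 28 members tested were called (0% of 15779 genes tested were), and 0 at an adjusted p under 0.05 (0.735% were). Of these 3 had an unadjusted p under 0.05, and edgeR and DESeq2 called 0. Irf7, at 984 and 730 against 226 and 384, differed by -1.49 (SE 0.41, limma-trend, adjusted p = 0.183). Cmpk2, at 224 and 237 against 38 and 70, differed by -1.96 (SE 0.61, limma-trend, adjusted p = 0.213). The groups did not overlap for either gene, as for 54.9% of all genes tested. The median over the members was -0.50, beside -0.26 for all genes tested, which became -0.33 and -0.08 after rescaling by median of ratios. Without KO pool 2, which leaves the shallowest library alone, Oas1a, Psmb8, Stat2 and Xaf1 were called lower, 4 of 26 members beside 9.65% of all genes. The Epcam WT samples are the controls of both comparisons.

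Between KO and HE pools only 13 members exceeded 40 CP20M in all 4 pools. By limma-trend 0 were called at an adjusted p under 0.05 (0% of 11892 genes tested were), 2 had an unadjusted p under 0.05, and edgeR and DESeq2 called 0. By the criterion of the study's methods, in which the means must lie more than 2 average SDs apart and differ by over 1.5 times, 4 were lower in KO (Ifit1, Trim25, Irf7 and Parp9), where 9.98% of all genes tested were, and 0 were higher. This criterion is no test. Ifit1 was at 208 and 254 in HE and 76 and 70 in KO (log2 fold change -1.53, SE 0.53, limma-trend, adjusted p = 0.931). Trim25 was at 1968 and 1867 against 1014 and 1325, and Irf7 at 553 and 534 against 226 and 384. Parp9 was at 622 and 414 against 338 and 314. None of these 4 overlapped between the groups, where 26.1% of all genes tested were lower without overlap, and in KO pool 1 the 76 of Ifit1 was 2 reads. Usp18 (127 and 134 against 151 and 82) and Rsad2 (334 and 241 against 413 and 152) overlapped. The median over the members was -0.04, beside -0.18 for all genes tested, and after rescaling by median of ratios it was 0.14, beside 0.00.

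The rest of the pathway was read from lists chosen for their role. Of 21 interferon genes, only Ifnk reached 40 CP20M in 2 crypt libraries, at 27 and 46 in WT, 47, 39, 53, 60 and 73 in KO, 21, 34 and 41 in eControl and 13 and 64 in eKO. Ifnb1, Ifnl2 and Ifnl3 were at 0 in all 18 libraries, which in crypts allows up to 5.46 to 9.72 CP20M each, and Ifng was at most 7. Receptor genes were present throughout, with the type II receptor chain Ifngr1 at 3135 to 5925 in crypts and 864 to 2485 in sorted cells and the type I chain Ifnar1 at 828 to 1030 and 381 to 702. Ifnlr1, the epithelial type III receptor chain, was called lower in Epcam WT than in WT crypts (99 and 134 against 259 and 326). In the same comparison Tlr3, an endosomal RNA sensor, was lower (537 and 432 against 1060 and 1168), the 1 of 10 adapters and sensors called. Of all genes tested there, 5.27% were called lower.

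Of 24 other interferon-responsive genes tested in KO against WT crypts, 1 was called higher and 2 lower. Over all 15975 genes tested, 7.95% were called higher and 244 genes lower. Irf1, a factor downstream of type II interferon, was at 1058 and 1078 in WT and 1186 to 2352 in KO. Ifitm3, which blocks viral entry, was at 245 and 261 in WT and 130 to 188 in KO, and Trim34a at 155 and 197 against 70 to 118. None of these 3 overlapped between the groups, where 18.2% of all genes tested were higher without overlap and 13.1% lower. In the Vil1Cre-Olfr78fx line Trim34a overlapped, at 172, 231 and 263 in eControl and 144 and 297 in eKO, as did Irf1 and Ifitm3. Trim34a lies near Olfr78, and the part of the targeted region in its level was not tested. Socs1, an inhibitor of the kinases, was the 1 of 6 feedback genes called lower (40 and 50 against 14 to 31). It reached 40 CP20M in the WT mice only and held 6 to 11 reads in KO. It thus entered the test through the group where it was high, and its call follows in part from the filter. In Epcam WT cells against WT crypts 5 of 24 were lower, beside 5.27% of all genes tested, namely Ifit1bl1, Ifi27, Irgm2, Sp100 and Ube2l6, and 0 higher. Sp100 (36 and 93) and Ube2l6 (54 and 31) reached 40 CP20M in 1 sorted sample only, so they entered the test through the crypts. None of the 13 class I antigen presentation genes tested was called in either comparison by these rules.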

How the data were processed

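RNA was sequenced from sorted cells and crypts. The authors aligned paired-end reads with STAR to GRCm38 (mm10), counted them per gene with HTSeq on Ensembl release 90, scaled each library to 20000000 and deposited the values rounded up. All columns hold this same CP20M measure, recorded here as a signal for sorted and as a score for crypt columns of the deposited tables. Whole reads were recovered from the steps between low values (99.787% to 99.986% of values above 0 equalled a whole read number once rounded up).

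Groups were compared on log2(CP20M + 10) with limma-trend 3.58.1 in R 4.3.3 over genes with at least 40 CP20M in 2 libraries (above 40 in all 4 pools for KO against HE), with Benjamini-Hochberg adjustment over all genes tested. Sorted comparisons with Epcam WT used an adjusted p under 0.001 and a log2 fold change beyond 2, and Epcam WT against crypts used 0.05 and 1. edgeR 4.0.16 and DESeq2 1.42.0 on recovered reads, other pseudocounts (1 and 40), filters (none and 200), rescaling, fits and left-out libraries were alternatives. The fits were tested on simulated data. Members and lists were chosen with earlier results of these data known. Members named with values in every library were those called in any comparison and the most and least abundant of each role per kilobase of exon in crypts. The p-values measure the spread between these samples, which for Epcam WT is the spread between 2 samples of 1 mouse and not between mice.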

Additional observations from a re-analysis of the deposited data

Results flagged for a closer look

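Of 37 members examined over the 5 KO crypt mice, the 1 group large enough, 5 held 1 mouse far from the other 4. The rule is set to flag about 1 in 20 by chance if genes vary independently, and its share over all genes was not computed. KO 5 stood high for Herc6 (211, against 111 to 133), Trim25 (4441, against 3367 to 3527) and Parp14 (1967, against 1322 to 1422). KO 1 stood low for Bst2 (94, against 124 to 136) and high for Slfn5 (47, against 10 to 19). KO 5 was also above the mean for 32 of 35 members, so its flags are not independent of each other and no excess over chance is claimed.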

How the results depend on the processing

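Of the counts of called members, 141 kept within 1.5 times their value under the alternatives and 30 did not. Of the log2 fold changes of named genes, 391 kept direction and side of the threshold, 50 lost the call, 10 gained it and 3 reversed. The 3 calls in KO against WT crypts became 2 with a filter at 200 and 7 with a replicate block. Of the KO mice, the block keeps KO 1 and KO 2 only. The added calls were Cmpk2, Ifit1, Oasl1 and Rtp4, 4 of 31 members lower beside 441 of all 15275 genes tested. Ifit1 was at 180 and 179 in the KO mice kept and 238 to 498 in those left out. Both lines together gave 1 (Slfn4, higher, beside 8 of all 15954 genes tested) with the replicate block, which leaves out the same KO mice and eControl 3. The line difference gave 1 with DESeq2. The 10 calls in Epcam WT against WT crypts became 4 after rescaling, 4 with edgeR, 3 with DESeq2, 6 with the filter at 200, 5 with all libraries in 1 fit and 0 without a filter. In that last setting 0 of all 35855 genes tested were called, so the loss was not particular to the members. The cause was not tested. Leaving out 1 library gave 0 to 4 members for KO against Epcam WT (4 without KO pool 2), 0 to 4 for both lines (4 without eKO 1), 0 to 9 for the line difference (9 without the library labelled eKO 2), 3 to 4 for KO against WT crypts and 4 to 16 for Epcam WT against crypts (4 without WT 2, 16 without Epcam WT sample 1). In eKO against eControl, Slfn4 ranged from -0.79 to 1.13 and was -0.51 without eControl 1, and Oas2 ranged from -0.54 to 1.67.

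Same-numbered samples are different animals and no source ties a number to a shared litter, batch or day, so they were not treated as paired (r of deviations 0.03 for HE and Epcam WT, 0.02 for KO and Epcam WT, -0.24 for KO and HE, 0.06 and -0.10 for crypts of the Olfr78-GFP strain, 0.59 and 0.36 for those of the Vil1Cre-Olfr78fx line). In that line the replicate block, which leaves out eControl 3, called 0 members, with 10 at an unadjusted p under 0.05 instead of 0 and a median of 0.37 instead of 0.11, equal to the median without eControl 3 and no block. A crossed pairing of KO and HE, chosen after seeing the data, called 29 genes higher and 56 lower and 0 members. Depth limited sorted cells most, as 27 members had at most 3 reads in KO pool 1.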
